A study of Mus musculus with 3 samples.

Results

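Kupffer cells are the resident macrophages of the liver sinusoids, which engulf ageing red cells and microbes and recycle iron. In the liver around birth, where blood cells still form, macrophages also serve erythroblasts and clear the nuclei they expel. Their identity genes include the lectin Clec4f, the complement receptor Vsig4, the phosphatidylserine receptor Timd4, the C1q chains and the secreted scavenger protein Cd5l. Gpnmb is a membrane glycoprotein that macrophages make under lysosomal and lipid load. The cells described here are the Kupffer-like macrophages without Gpnmb. They were chosen by their measured counts: each is a barcode with 2 or more UMIs (unique molecular identifiers, one per captured probe molecule) for at least 3 of the 7 genes C1qa, C1qb, C1qc, Clec4f, Vsig4, Cd163 and Timd4, at least 500 CPM of the 3 C1q genes together, and fewer than 2 Gpnmb UMIs. CPM is a UMI count scaled to a total of 1000000 UMIs. The rule found 263 of 25845 barcodes.

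The cells came from livers of newborn mice (postnatal day 0) of 3 genotypes, pex2-/- (KO), pex2-/+ (Het) and pex2+/+ (WT). Pex2 encodes a ubiquitin ligase subunit of the peroxisomal membrane that protein import needs, and its loss models severe Zellweger disease. Viable CD45+ cells were sorted after hepatocytes had been spun out and red cells lysed, then fixed and read with gene-specific probes. There was 1 library per genotype, and no source used here gives the number of animals in each, so no difference below was tested and all intervals (95%) cover counting error only.

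The labels do not match the order of Pex2 itself. Pex2 had 0 UMIs in KO members, 65 UMIs (59.1 CPM) in members of the library labelled Het and 17 UMIs (20.4 CPM) in those of the library labelled WT, so the labelled Het value was above the labelled WT value. No source used here says whether the probe lies within the deleted stretch. Members carried 0 Y-linked UMIs in the KO library, 0 in the library labelled Het and 267 in the library labelled WT. Genotype, sex and library therefore cannot be told apart for the library labelled WT. No full barcode was shared between libraries.

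Kupffer-like macrophages without Gpnmb were about 1% of each library. They were 77 of 8245 barcodes in the KO library (0.934%, exact interval 0.738 to 1.17%), 93 of 8000 in the library labelled Het (1.16%, 0.939 to 1.42%) and 93 of 9600 in the library labelled WT (0.969%, 0.783 to 1.19%). The ratio of KO to labelled Het shares was 0.803 (0.586 to 1.10) and that of KO to labelled WT shares 0.964 (0.703 to 1.32), so neither interval excluded 1. Median depth was 14436 UMIs per member in the KO library, 11235 in the library labelled Het and 7573 in the library labelled WT. With every barcode thinned to 3000 UMIs (333, 297 and 770 shallower barcodes of the KO, labelled Het and labelled WT libraries left out), members were 1.04% of KO barcodes, 0.740% of labelled Het barcodes and 0.827% of labelled WT barcodes. The KO to labelled Het ratio was then 1.40 (lower limit 0.987), on the other side of 1. With 0 Gpnmb UMIs required it was 0.714 (0.513 to 0.990). With no Gpnmb limit it was 1.48 (1.14 to 1.93), and the KO to labelled WT ratio 1.83 (1.41 to 2.39), so the side of 1 depends on how Gpnmb is set.

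The limit on Gpnmb took many more cells from the KO library than from the others. Of the macrophages that met the rest of the rule, 74 of 151 in the KO library had 2 or more Gpnmb UMIs (49.0%), against 6 of 99 (6.06%) in the library labelled Het and 3 of 96 (3.13%) in the library labelled WT. Thinned to 3000 UMIs, these were 33 of 115 KO macrophages (28.7%), 1 of 58 labelled Het macrophages (1.72%) and 0 of 73 labelled WT macrophages (0%, up to 4.93%). KO members are thus what remains of KO macrophages after 49.0% were set aside, while nearly all macrophages of the other libraries are members. These counts describe the rule. Just inside the limit, at 1 Gpnmb UMI, lay 10 KO, 2 labelled Het and 2 labelled WT members, and just outside it, at 2 UMIs, lay 10 KO, 3 labelled Het and 2 labelled WT macrophages. At exactly 3 marker genes lay 15 KO, 20 labelled Het and 11 labelled WT members, and at 2 marker genes 11 KO, 6 labelled Het and 7 labelled WT barcodes lay outside.

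**Figure D1:**
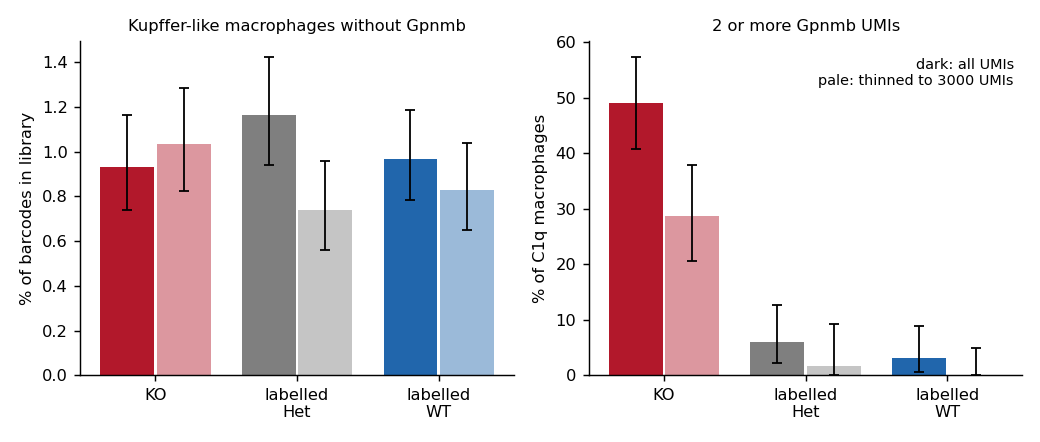
Left, members as a percentage of the barcodes of the KO library, the library labelled Het and the library labelled WT; right, percentage of macrophages of the rule with 2 or more Gpnmb UMIs (dark bars, all UMIs; pale bars, thinned to 3000 UMIs; error bars, exact 95% intervals). Member shares lie between 0.740% and 1.16%, while the Gpnmb share is 49.0% in the KO library and at most 6.06% in the others.

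The genes of the rule describe the cells and were not compared. Clec4f stood at 1696 CPM in KO members, 2583 CPM in labelled Het members and 3000 CPM in labelled WT members. Timd4 stood at 186 CPM in KO, 391 CPM in labelled Het and 522 CPM in labelled WT members, and Cd163, a haemoglobin receptor, at 943 CPM in KO, 292 CPM in labelled Het and 405 CPM in labelled WT members. Cd5l, which the rule does not use, had a UMI in 51.9% of KO members, 84.9% of labelled Het members and 86.0% of labelled WT members. In B-lineage barcodes, which should lack it, the shares were 0%, 0.453% and 0.698% in the KO, labelled Het and labelled WT libraries (median 6233, 8373 and 4848 UMIs).

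Not every member carried Clec4f. At least 2 Clec4f UMIs were found in 54 KO members (70.1%), 74 labelled Het members (79.6%) and 80 labelled WT members (86.0%), which leaves 23 KO, 19 labelled Het and 13 labelled WT members without. Fn1, which encodes fibronectin and is a gene of monocytes and of some macrophages, stood at 8162 CPM in KO, 3416 CPM in labelled Het and 6015 CPM in labelled WT members without Clec4f. In members with Clec4f it stood at 86.9 CPM in KO, 12.9 CPM in labelled Het and 18.4 CPM in labelled WT cells. A single cell held 36.8% of the Fn1 UMIs of KO members, 65.0% of those of labelled Het members and 60.4% of those of labelled WT members. Clec4f belongs to the rule, so it lends the name no independent support. Cd5l, outside the rule, was low in KO members with Clec4f as well, and neutrophil genes summed to 114740 CPM in KO, 96273 CPM in labelled Het and 65976 CPM in labelled WT members with Clec4f.

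Transcripts of neutrophils, the most frequent cells of the sort, were found in the members of every library. The 12 neutrophil genes, S100a8 and S100a9 the highest, summed to 107175 CPM in KO, 92244 CPM in labelled Het and 56244 CPM in labelled WT members, with none of the 12 at 0 in any library. The sum lay largely in the cells at 50000 CPM or more, 18 KO, 19 labelled Het and 13 labelled WT members, and without them it was 4295 CPM in KO, 8626 CPM in labelled Het and 7347 CPM in labelled WT members. Their part in each gene below was not tested. Of 91 named genes that passed the rule below and could be tested without these cells, 72 still passed it, and most of those that did not are given beside their results. The other lists at over 1000 CPM in any library were monocyte genes (9812 CPM in KO, 5379 CPM in labelled Het and 2982 CPM in labelled WT members) and platelet genes, mostly Pf4 (1655 CPM in KO, 749 CPM in labelled Het and 1466 CPM in labelled WT members). Hepatocyte genes summed to at most 139 CPM and dendritic genes to at most 9.10 CPM. Genes of T and natural killer cells summed to at most 119 CPM, and liver endothelium genes to at most 272 CPM. Stellate and stromal genes summed to 575 CPM in KO, 170 CPM in labelled Het and 103 CPM in labelled WT members, nearly all of it Ecm1. Xcr1, Cd209a, Col1a1 and Cd3e were at 0 in every library. Cd3d, of the same list as Cd3e, stood at 86.0 CPM in KO, 80.1 CPM in labelled Het and 41.9 CPM in labelled WT members.

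Gene by gene, the KO members stood apart from both other libraries about as often as the members labelled WT did, and farther. A gene was counted as higher or lower in KO when its CPM over the summed members differed by at least 1.5-fold from both other libraries, with both intervals excluding 1. The genes tested, 7297 in all, had 30 or more UMIs and averaged 20 CPM or more; of these 402 were higher in KO (5.51%) and 502 were lower (6.88%). By the same rule 92 genes were higher (1.26%) and 111 lower (1.52%) in labelled Het members, and 465 higher (6.37%) and 397 lower (5.44%) in labelled WT members. Taken in pairs, 9.35% of genes were higher and 10.0% lower in KO than in labelled Het members, 14.8% were higher and 17.4% lower in KO than in labelled WT members, and 8.07% were higher and 9.87% lower in labelled Het than in labelled WT members. At 4-fold, 17 genes were higher and 53 lower in KO members, 8 higher and 3 lower in labelled Het members, and 7 higher and 18 lower in labelled WT members. At 8-fold, 7 genes were higher and 20 lower in KO members, against 2 and 1 in labelled Het members and 1 and 8 in labelled WT members.

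**Figure D2:**
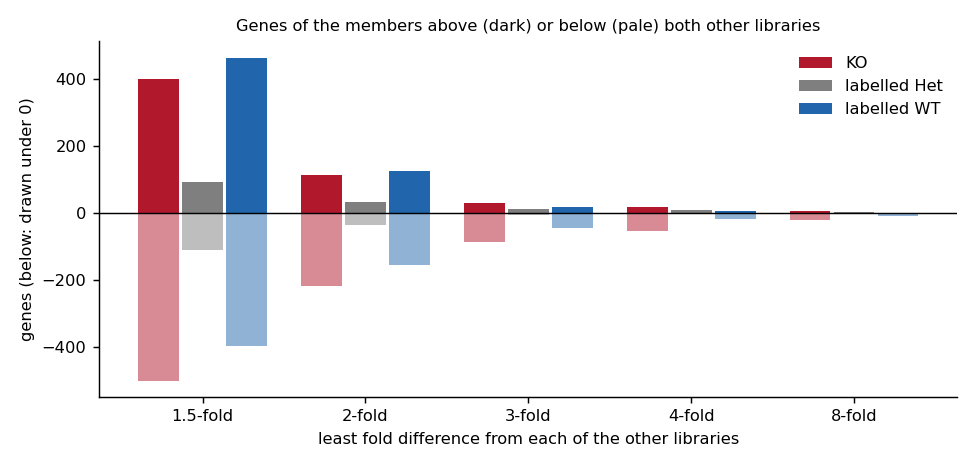
Number of genes (of 7297) whose CPM in the members of one library was above (dark bars, upward) or below (pale bars, drawn under 0) that of both other libraries by at least the fold on the x axis. At 1.5-fold the KO library (402 above, 502 below) and the library labelled WT (465 above, 397 below) are close, and at 4-fold the KO library has 53 genes below against 18 for the library labelled WT.

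The genes lowest in KO members included lectin and scavenger genes that tissue macrophages make. Cd209f and Cd209g encode C-type lectins of the DC-SIGN family, which bind sugars on microbes, and Cd5l encodes a protein of the scavenger receptor cysteine-rich family that macrophages secrete. The 250 bases before the RefSeq start of these genes (GRCm38.p6) are shown because all 3 were among the 12 genes lowest in KO against both libraries, and because Cd209f and Cd209g are neighbours on chromosome 8 with closely related sequence. Capitals mark matches on either strand to GAGGAA, the core bound by PU.1, or to TGCTGA, a half-site of MAF factors. TGGGAA, the core bound by RBPJ, was searched as well. The Cd5l window is chr3:87357631-87357880, plus strand, outside any gene of the GENCODE annotation. The Cd209f window is chr8:4105765-4106014, minus strand, and the Cd209g window is chr8:4134486-4134735, plus strand. The Cd209f window overlaps the GENCODE gene Cd209f in part, and the Cd209g window lies within the GENCODE gene Cd209g, whose start is placed farther upstream.
Cd5l: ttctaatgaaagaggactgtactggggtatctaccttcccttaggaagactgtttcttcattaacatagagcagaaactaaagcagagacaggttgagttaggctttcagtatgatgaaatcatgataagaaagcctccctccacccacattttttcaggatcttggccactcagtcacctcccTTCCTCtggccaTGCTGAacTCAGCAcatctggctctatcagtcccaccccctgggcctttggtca
Cd209f: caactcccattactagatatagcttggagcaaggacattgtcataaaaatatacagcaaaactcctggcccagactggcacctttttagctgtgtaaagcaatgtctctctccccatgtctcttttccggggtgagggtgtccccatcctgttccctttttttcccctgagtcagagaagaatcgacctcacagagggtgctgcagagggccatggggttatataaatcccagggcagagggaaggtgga
Cd209g: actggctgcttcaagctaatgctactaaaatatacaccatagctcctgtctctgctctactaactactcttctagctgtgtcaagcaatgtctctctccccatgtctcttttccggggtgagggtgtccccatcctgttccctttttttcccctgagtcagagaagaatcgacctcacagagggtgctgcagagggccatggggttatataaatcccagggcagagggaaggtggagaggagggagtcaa
The Cd5l window held 1 match to GAGGAA and 2 to TGCTGA, while the windows of Cd209f and Cd209g held none of either. TGGGAA was in none of the 3. Over 32851 windows of the same length, 23.3% held GAGGAA, 16.1% TGCTGA and 21.6% TGGGAA. The windows of Cd209f and Cd209g shared an unbroken run of 154 identical bases. That run lies before the RefSeq starts, so it does not show whether probes of the pair bind both transcripts. Such binding was not tested, and which of the pair a UMI came from is uncertain. Each gene was also found without the other. In 1 labelled WT member Cd209f stood at 3949 CPM with Cd209g at 0 CPM, and in another Cd209g stood at 3416 CPM with Cd209f at 0 CPM.

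Cd209f (ENSMUSG00000051906, chromosome 8, 4102787 to 4105835, minus strand) had 2 UMIs in KO members, 893 in labelled Het members and 779 in labelled WT members, or 1.59, 813 and 933 CPM in the KO, labelled Het and labelled WT libraries. The ratio of KO to labelled Het was 0.00196 (0.000237 to 0.00710) and that of KO to labelled WT 0.00171 (0.000206 to 0.00619). A Cd209f UMI was found in 2 of 77 KO members, 70 of 93 labelled Het members and 66 of 93 labelled WT members, at a per-cell median of 0 CPM in KO, 631 CPM in labelled Het and 552 CPM in labelled WT members. The libraries overlapped only among cells without a UMI and at the low end, since the highest KO member reached 56.4 CPM against 15952 CPM in labelled Het and 8227 CPM in labelled WT members.

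Cd209g (chromosome 8, 4134098 to 4137707, plus strand) gave the same picture, with 2 UMIs in KO members, both in 1 cell, 909 in labelled Het members and 945 in labelled WT members. That is 1.59 CPM in KO, 827 CPM in labelled Het and 1132 CPM in labelled WT members. In the KO macrophages with Gpnmb, which the rule leaves out, Cd209f stood at 2.22 CPM and Cd209g at 0.739 CPM. In the 6 labelled Het macrophages with Gpnmb they stood at 527 and 625 CPM, and in the 3 of the library labelled WT at 599.8 and 1084 CPM.

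Cd5l (chromosome 3, 87357881 to 87371073, plus strand) stood at 236 CPM in KO members (296 UMIs), 2754 CPM in labelled Het members (3026 UMIs) and 2659 CPM in labelled WT members (2220 UMIs). It was 0.0856 of the labelled Het value (0.0758 to 0.0965) and 0.0887 of the labelled WT value (0.0783 to 0.100), while labelled Het and labelled WT differed by 0.05 on the log2 scale. Per cell it ran from 0 to 3111 CPM with a median of 32.99 CPM in KO members, from 0 to 18868 CPM with a median of 2662 CPM in labelled Het members, and from 0 to 26658 CPM with a median of 2191 CPM in labelled WT members. The ranges overlap, and 1 KO cell held 30.1% of the KO UMIs. In the cells with Clec4f it stood at 229 CPM in KO, 3470 CPM in labelled Het and 3129 CPM in labelled WT members, whereas members without Clec4f had 253 CPM in KO, 257 CPM in labelled Het and 100.2 CPM in labelled WT cells. That KO cell is one without Clec4f and held 89 of the 96 Cd5l UMIs of such KO members. Leaving out the cell with most Cd5l UMIs in each library, a setting chosen after seeing the data, members without Clec4f had 19.9 CPM in KO, 152 CPM in labelled Het and 31.4 CPM in labelled WT cells. KO macrophages with Gpnmb had 160 CPM of Cd5l.

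**Figure D3:**
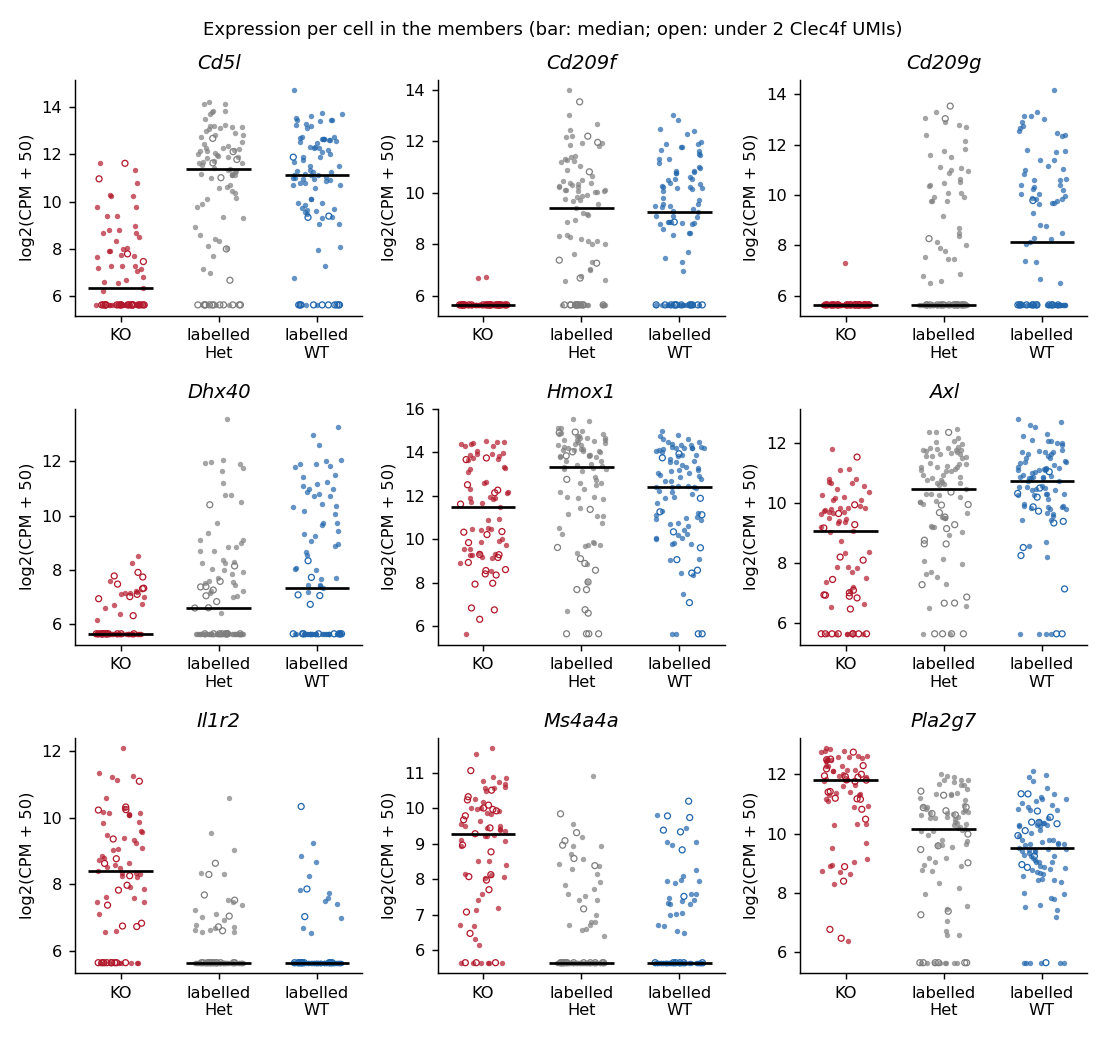
Expression per cell, as log2(CPM + 50), of 9 genes in the 77 KO, 93 labelled Het and 93 labelled WT members (1 point a cell; filled, 2 or more Clec4f UMIs; open, fewer; bar, median). Cd5l, Cd209f and Cd209g are at or near the floor in most KO members, and Il1r2, Ms4a4a and Pla2g7 are at higher levels in KO members, with overlap between libraries in all 9.

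Kupffer identity genes outside the rule were lower in KO members in part, not as a whole. Of 21 such genes tested, 7 were lower in KO than in both other libraries (Cd5l, Adgre1, Cdh5, Fcna, Folr2, Id1 and Slc16a9), 1 was higher (Clec1b) and 13 were neither, with a median log2 ratio of -0.49 for KO over labelled Het and -0.66 for KO over labelled WT. Without the members rich in neutrophil transcripts these medians were -0.29 and -0.26. Over all 7297 genes the medians, with all members, were -0.00 and -0.04. Id1, a transcription inhibitor that BMP signals induce, stood at 164 CPM in KO, 506 CPM in labelled Het and 698 CPM in labelled WT members. Fcna, which encodes the lectin ficolin A, stood at 1860 CPM in KO, 3357 CPM in labelled Het and 3934 CPM in labelled WT members. Cdh5, encoding VE-cadherin, stood at 69.3 CPM in KO, 188 CPM in labelled Het and 190.4 CPM in labelled WT members. Adgre1, encoding the macrophage antigen F4/80, was 0.592 of labelled Het (0.513 to 0.683) and 0.537 of labelled WT (0.463 to 0.623). Without the members rich in neutrophil transcripts its log2 ratio nearest 0 was -0.48, short of 1.5-fold.

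Other identity genes did not pass the rule. Vcam1, which binds developing blood cells, stood at 2201 CPM in KO, 2258 CPM in labelled Het and 2015 CPM in labelled WT members, and Slc40a1, the iron exporter ferroportin, at 2134 CPM in KO, 2222 CPM in labelled Het and 2512 CPM in labelled WT members. Marco, a scavenger receptor, was set apart by the library labelled Het, at 1523 CPM in KO, 3690 CPM in labelled Het and 1926 CPM in labelled WT members. Mrc1, the mannose receptor, stood at 1457 CPM in KO, 911 CPM in labelled Het and 998 CPM in labelled WT members, with a log2 ratio nearest 0 of 0.55, just under 1.5-fold. It passed the rule in members with Clec4f (0.71) and without members rich in neutrophil transcripts (0.92). Clec1b, which encodes the lectin CLEC-2, was higher at 65.3 CPM in KO, 37.3 CPM in labelled Het and 32.3 CPM in labelled WT members. Among 20 transcription factors tested none was higher, and Id1 was among those lower. Spic, which directs the red pulp and iron-recycling macrophage programme, stood at 308 CPM in KO, 432 CPM in labelled Het and 502 CPM in labelled WT members and was not counted.

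Genes for erythroblast support and engulfment were counted in 1 direction. Of 17 tested, 6 were lower in KO (Axl, Gas6, Itgav, Itgb5, Scarb1 and Siglec1) and none was higher, beside 6.88% of all genes lower. The list's median log2 ratio was -0.07 for KO over labelled Het and -0.71 for KO over labelled WT. Without members rich in neutrophil transcripts these medians were 0.08 and -0.26. Axl, a receptor for dying cells, stood at 477 CPM in KO (median per cell 493 CPM, highest 3543 CPM), 1223 CPM in labelled Het (1374 CPM, highest 5650 CPM) and 1617 CPM in labelled WT members (1676 CPM, highest 7087 CPM). Its ligand Gas6 stood at 20.7 CPM in KO, 91.0 CPM in labelled Het and 146 CPM in labelled WT members. Siglec1, a sialic acid receptor by which macrophages hold other cells, was 0.346 of labelled Het (0.287 to 0.417) and 0.245 of labelled WT (0.203 to 0.294). Mertk, the related receptor, stood at 387 CPM in KO, 331 CPM in labelled Het and 345 CPM in labelled WT members and was not counted.

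Of 15 heme and iron genes, 4 were lower in KO (Hmox1, Fth1, Slc48a1 and Nfe2l2) and none was higher, beside 6.88% of all genes lower. Erythroid transcripts in the members summed to 191 CPM in KO, 824 CPM in labelled Het and 335 CPM in labelled WT members, the order of Hmox1, and their part was not tested. Hmox1, the heme-cleaving enzyme, stood at 4131 CPM in KO, 9076 CPM in labelled Het and 7027 CPM in labelled WT members, with per-cell medians of 2789 CPM, 10392 CPM and 5371 CPM in KO, labelled Het and labelled WT members. Its log2 ratio nearest 0 was -0.77, with -0.53 among members with Clec4f and -0.48 without members rich in neutrophil transcripts, both short of 1.5-fold. Fth1, the ferritin heavy chain, stood at 2036 CPM in KO, 3765 CPM in labelled Het and 4202 CPM in labelled WT members. The KO macrophages with Gpnmb had 5557 CPM of Fth1, and with them included the log2 ratio nearest 0 was -0.01. Slc48a1, a heme transporter, stood at 385 CPM in KO, 695 CPM in labelled Het and 869 CPM in labelled WT members.

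The remaining genes lowest in KO were of several kinds. Dhx40, a helicase of the DEAH family (chromosome 11, 86768846 to 86807746, minus strand), stood at 27.1 CPM in KO, 729 CPM in labelled Het and 1154 CPM in labelled WT members. In monocytes it stood at 39.3 CPM in KO, 35.2 CPM in labelled Het and 36.8 CPM in labelled WT cells, and in members without Clec4f at 39.5 CPM in KO, 61.2 CPM in labelled Het and 61.7 CPM in labelled WT cells. Dusp5, a phosphatase of nuclear ERK, stood at 51.8 CPM in KO, 449 CPM in labelled Het and 673 CPM in labelled WT members. The chemokine Ccl7 had 0 UMIs in KO members, 137 in labelled Het members and 25 in labelled WT members, so it was at least 52.2-fold higher in labelled Het and at least 12.5-fold higher in labelled WT than in KO (floor of 3 UMIs in the KO sum). Adgb and Mpzl1 followed at lower levels, while Ccn3 and Atp1b1 rested on few cells, since 1 cell gave 90.9% of the Ccn3 UMIs in the library labelled WT and 88.9% of the Atp1b1 UMIs in the KO library. Cd79a, a B-cell gene, was also among the 12, at 11.2 CPM in KO, 63.7 CPM in labelled Het and 80.2 CPM in labelled WT members, and B-lineage genes as a whole summed to 234 CPM in KO, 693 CPM in labelled Het and 686 CPM in labelled WT members.

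Some cytokine, interferon-stimulated and immediate early genes were lower in KO members, beside 6.88% of all genes lower and 5.51% higher, and the lists also differed between the other libraries. Of 17 cytokine genes, 7 were lower in KO (Ccl2, Ccl24, Ccl7, Il1a, Il1b, Il6 and Tnf) and 2 were higher (Ccl6 and Cxcl2). Il1b, the fever cytokine, stood at 7.97 CPM in KO, 90.1 CPM in labelled Het and 480.2 CPM in labelled WT members. Of 22 interferon-stimulated genes, 12 were lower in KO and none was higher, with a median log2 ratio of -0.88 for KO over labelled Het, -1.71 for KO over labelled WT and -0.85 for labelled Het over labelled WT. The step between the libraries labelled Het and labelled WT was thus nearly as large as that between KO and labelled Het. Ifit3, an interferon-induced inhibitor of viral RNA, stood at 4.78 CPM in KO, 30.9 CPM in labelled Het and 92.2 CPM in labelled WT members. Bst2, the virus-tethering protein tetherin, did not show that step, at 70.9 CPM in KO, 345 CPM in labelled Het and 329 CPM in labelled WT members. Of 17 immediate early genes, Fosb, Ier3, Junb and Zfp36 were lower in KO and none was higher, and the list's median for labelled Het over labelled WT was -0.79. Zfp36 did not pass the rule in members with Clec4f (-0.52). Dusp1, a phosphatase of MAP kinases, stood at 1467 CPM in KO, 983 CPM in labelled Het and 723 CPM in labelled WT members and was not counted.

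The genes highest in KO members included a decoy receptor, a membrane protein of macrophages and the leptin receptor. Il1r2 (chromosome 1, 40074079 to 40125231, plus strand), a decoy receptor that binds interleukin-1 without signalling, stood at 472 CPM in KO, 58.2 CPM in labelled Het and 39.5 CPM in labelled WT members. It was 8.11-fold labelled Het (6.26 to 10.7) and 11.96-fold labelled WT (8.42 to 17.5), with a UMI in 60 of 77 KO, 26 of 93 labelled Het and 15 of 93 labelled WT members. Thinned to 3000 UMIs, 58.3% of KO, 11.4% of labelled Het and 6.67% of labelled WT members had an Il1r2 UMI. Monocytes showed the same order, at 568 CPM in KO, 242 CPM in labelled Het and 39.5 CPM in labelled WT cells.

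Ms4a4a (chromosome 19, 11375523 to 11392790, plus strand), a four-span membrane protein of macrophages, stood at 511 CPM in KO, 127 CPM in labelled Het and 111 CPM in labelled WT members, with per-cell medians of 572 CPM, 0 CPM and 0 CPM in KO, labelled Het and labelled WT members. Lepr, the leptin receptor, stood at 354 CPM in KO, 92.8 CPM in labelled Het and 87.4 CPM in labelled WT members, nearly all of it in cells with Clec4f (496 CPM in KO, 119 CPM in labelled Het and 103 CPM in labelled WT cells). KO macrophages with Gpnmb had 2057 CPM of Lepr, and monocytes at most 0.212 CPM in any library. Alpk1, a kinase that senses a bacterial sugar, was 4.28-fold labelled Het (3.26 to 5.69) and 4.53-fold labelled WT (3.31 to 6.31). Trp53inp1, a stress gene under p53, stood at 312 CPM in KO, 89.2 CPM in labelled Het and 38.3 CPM in labelled WT members.

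Several leading genes leaned toward the members without Clec4f. Saa3, an acute-phase protein of macrophages, had 482 UMIs in KO members and 0 in the members of either other library, at least 141-fold labelled Het and at least 107-fold labelled WT (floor of 3 UMIs in each sum). Those UMIs came from 15 cells, 1 of which held 52.3%, and stood at 56.0 CPM in KO members with Clec4f and 1139 CPM in those without. Ecm1, a secreted matrix protein, stood at 570 CPM in KO, 168 CPM in labelled Het and 103 CPM in labelled WT members, and at 1516 CPM in KO, 473 CPM in labelled Het and 494 CPM in labelled WT members without Clec4f. The lectin Clec4d, the adhesion molecule Jaml and the SLAM-family receptor Cd244a were higher in KO than in both other libraries in cells with and without Clec4f. The set of the 12 highest was completed by the metalloprotease Adam8 and the nuclear receptor coactivator Ncoa1. None of the 24 leading genes in the 2 directions lost its call in any alternative in which it could be tested.

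**Figure D4:**
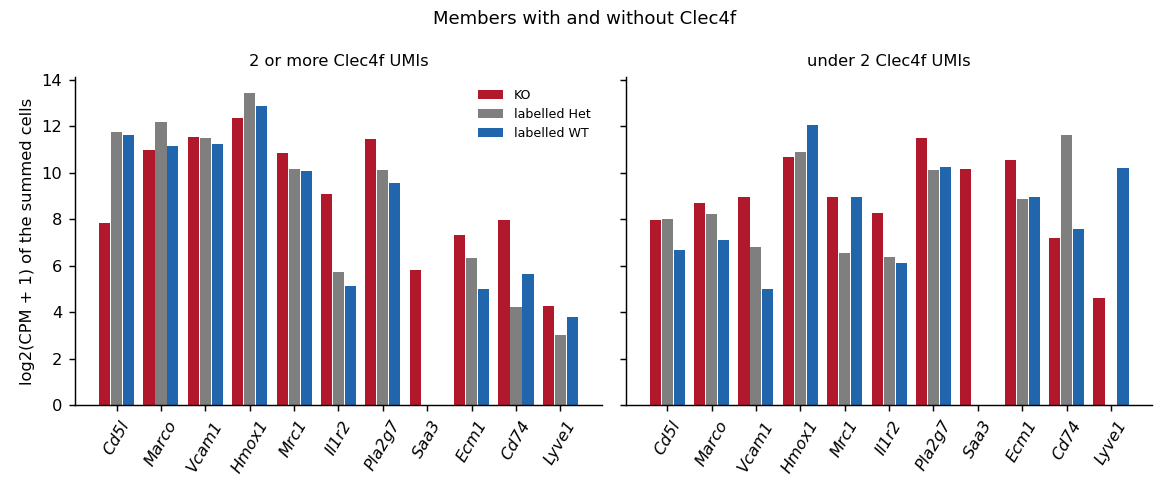
Level of 11 genes, as log2(CPM + 1) of the summed cells, in members with (left; 54 KO, 74 labelled Het, 80 labelled WT) and without (right; 23 KO, 19 labelled Het, 13 labelled WT) 2 or more Clec4f UMIs. Cd5l is low in KO cells on the left (229 CPM, against 3470 and 3129 CPM in labelled Het and labelled WT cells) and stands at 253 CPM in KO, 257 CPM in labelled Het and 100.2 CPM in labelled WT cells on the right, where 1 KO cell holds 89 of 96 KO UMIs, and Saa3 is found in KO cells only.

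Genes of lipid handling and lysosomes gave counts in both directions, beside 5.51% of all genes higher and 6.88% lower. Of 11 lipid-associated macrophage genes, Pla2g7 was higher and Plin2 and Lpl were lower, Lpl not without members rich in neutrophil transcripts (-0.45). Pla2g7, which encodes the secreted platelet-activating factor acetylhydrolase, stood at 2852 CPM in KO, 1106 CPM in labelled Het and 831 CPM in labelled WT members. Per cell it ran from 32.1 to 7505 CPM with a median of 3535 CPM in KO, from 0 to 4057 CPM with a median of 1093 CPM in labelled Het, and from 0 to 4396 CPM with a median of 686 CPM in labelled WT members. Plin2, which coats lipid droplets, stood at 189 CPM in KO, 423 CPM in labelled Het and 618 CPM in labelled WT members. Apoe stood at 17350 CPM in KO, 14399.5 CPM in labelled Het and 16767 CPM in labelled WT members. Of 33 lysosomal genes, Ctsl, Lamp2 and Ppt1 were higher in KO and none was lower. Lamp2, a lysosomal membrane protein, stood at 542 CPM in KO, 308 CPM in labelled Het and 297 CPM in labelled WT members, while the protease Ctsb stood at 5080 CPM in KO, 5314 CPM in labelled Het and 6315 CPM in labelled WT members.

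Of 18 LXR targets and sterol efflux genes, 4 were higher in KO (Acaca, Apoc2, Elovl5 and Smpdl3a) and 3 lower (Abca1, Fads1 and Pltp), beside 5.51% and 6.88% of all genes. In members with Clec4f, Acaca (0.39) and Elovl5 (0.38) were under 1.5-fold. Abca1, the cholesterol exporter, stood at 441 CPM in KO, 713 CPM in labelled Het and 1295 CPM in labelled WT members, and its log2 ratio nearest 0 was -0.47 without members rich in neutrophil transcripts, under 1.5-fold. Of 14 cholesterol synthesis genes none was higher in KO.

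Peroxisomal genes gave small counts in both directions, beside 5.51% of all genes higher and 6.88% lower. Of 12 peroxisome biogenesis genes, Mff and Pex7 were higher and none lower, with medians of -0.07 over labelled Het and -0.07 over labelled WT. Mff, a fission adaptor that mitochondria share, stood at 91.6 CPM in KO, 49.1 CPM in labelled Het and 49.1 CPM in labelled WT members. Of 23 peroxisomal enzymes and transporters, 2 were higher (Idh1 and Abcd2) and 2 lower, among them Cat. Without members rich in neutrophil transcripts Mff, Pex7 and Abcd2 did not pass the rule. Catalase (Cat), which splits hydrogen peroxide, stood at 139 CPM in KO, 260.3 CPM in labelled Het and 286 CPM in labelled WT members. Idh1, which makes NADPH in cytosol and peroxisome, stood at 192 CPM in KO, 72.8 CPM in labelled Het and 113 CPM in labelled WT members. Of 19 fatty acid oxidation and PPAR genes, Acadl was higher, though not without members rich in neutrophil transcripts, and Etfb and Plin2 were lower.

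Mitochondrially encoded genes were higher in KO members, 7 of 13 against 5.51% of all genes, and none was lower. Their median log2 ratio was 0.65 for KO over labelled Het, 1.12 for KO over labelled WT and 0.56 for labelled Het over labelled WT, an order that median depth per member follows as well, and whose part was not tested. With members thinned to 3000 UMIs the medians were 0.95 for KO over labelled Het and 1.39 for KO over labelled WT. mt-Atp6, an ATP synthase subunit, stood at 657 CPM in KO, 261 CPM in labelled Het and 262 CPM in labelled WT members. In the other barcodes of the libraries mt-Atp6 was also highest in KO, at 492 CPM in KO, 194 CPM in labelled Het and 146 CPM in labelled WT cells.

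**Figure D5:**
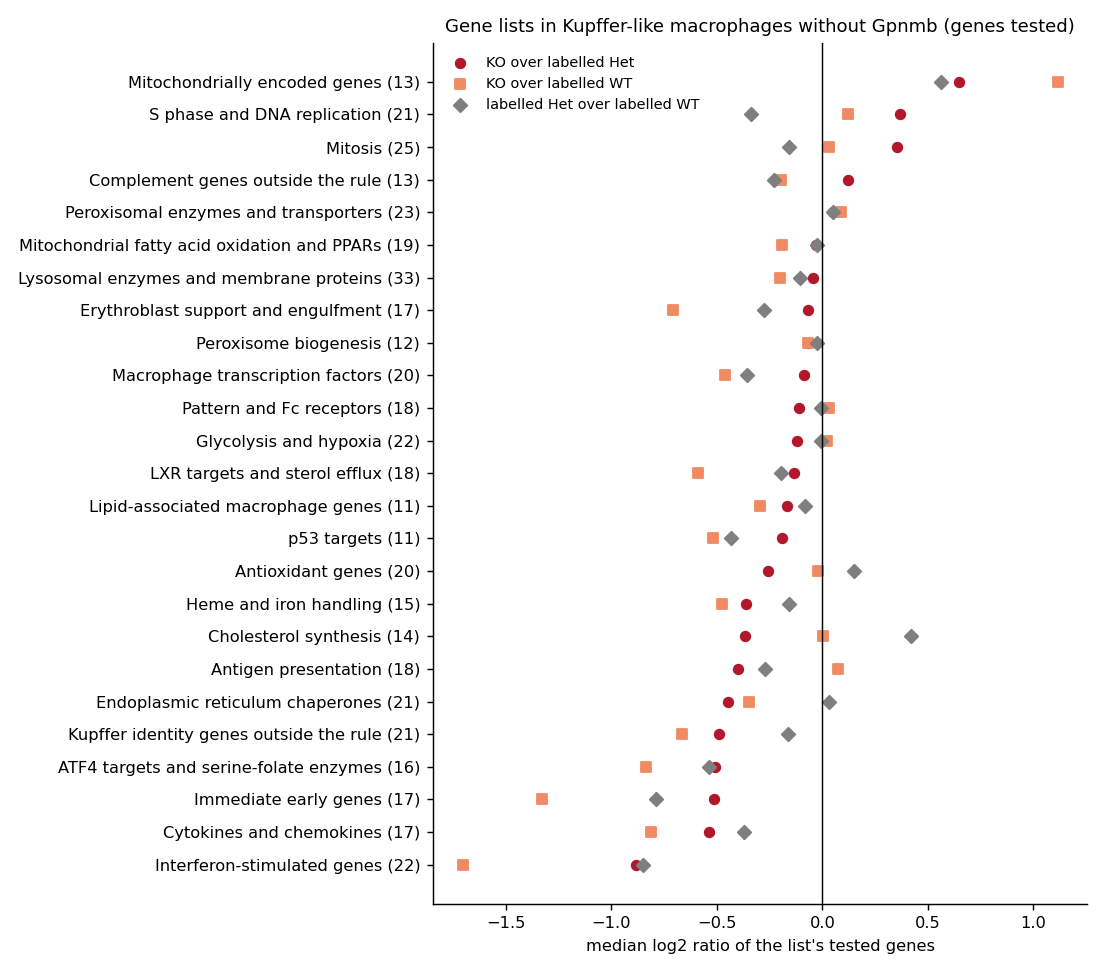
Median log2 ratio of the tested genes of 25 lists in the members (number of genes in brackets): circles, KO over labelled Het; squares, KO over labelled WT; diamonds, labelled Het over labelled WT. Mitochondrially encoded genes are highest (0.65 over labelled Het and 1.12 over labelled WT) and interferon-stimulated genes lowest (-0.88 and -1.71), and in both lists labelled Het differs from labelled WT in the same direction.

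Dividing cells were found among the members, and what their genes show rests on few cells. At least 2 UMIs of Mki67 or Top2a were found in 20 of 77 KO, 15 of 93 labelled Het and 14 of 93 labelled WT members. Median depth per member runs in the same order (14436, 11235 and 7573 UMIs), and its part in these counts was not tested. Of 25 mitosis genes Ccnb2, Mad2l1 and Mki67 were higher in KO, and of 21 S phase genes Fen1, Mcm2, Mcm4 and Mcm5. These counts stand beside 5.51% of all genes higher. Fen1, Mcm2 and Mcm4 did not pass the rule without members rich in neutrophil transcripts. Without the members rich in neutrophil transcripts Mki67 stood at 34.9 CPM in KO, 38.7 CPM in labelled Het and 89.0 CPM in labelled WT members, the opposite direction, and the mitosis list's median for KO over labelled WT was then -2.96, against 0.03 with them.

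The other lists gave mixed or small counts, to be read beside 5.51% of all genes higher and 6.88% lower. Of 18 pattern and Fc receptor genes, 4 were higher in KO (Fcgr4, Tlr13, Tlr6 and Tlr7) and Fcgr1 was lower. Tlr7, the receptor of single-stranded RNA, stood at 219 CPM in KO, 92.8 CPM in labelled Het and 64.7 CPM in labelled WT members, and Fcgr1, the high-affinity IgG receptor, at 103 CPM in KO, 240.2 CPM in labelled Het and 238 CPM in labelled WT members. Of 18 antigen presentation genes H2-D1 was higher and Cd86 and Tap1 were lower, neither of the lower ones without members rich in neutrophil transcripts (-0.38 for Cd86 and -0.58 for Tap1). With members thinned to 3000 UMIs the log2 ratio nearest 0 of H2-D1 was 0.06, under 1.5-fold, against 0.82 in the main values. Cd74, the class II chaperone, was set by 1 cell that held 54.9% of its UMIs in the library labelled Het. Of 20 antioxidant genes, 2 were higher (Mgst1 and Prdx6) and 6 lower (Cat, Gstp1, Hmox1, Nfe2l2, Srxn1 and Txnrd1). Of 22 glycolysis and hypoxia genes, 6 were lower (Hk2, Hk3, Ldha, P4ha1, Slc2a1 and Tpi1) and none higher. Of 16 ATF4 targets 4 were lower, of 21 endoplasmic reticulum chaperone genes Xbp1 was lower, of 13 complement genes C4b was higher and Fcna lower, and of 11 p53 targets Trp53inp1 was higher and Bbc3 and Sesn2 were lower. Atf5, an ATF4 target, and Bbc3 did not pass the rule without members rich in neutrophil transcripts. C4b could not be tested among members with Clec4f alone, or with members thinned to 3000 UMIs.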

How the data were processed

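Per the submitters' processing notes, the deposited UMI counts, whole numbers of 19059 probed genes by barcode in 3 libraries, were made by the authors with Cell Ranger 7.0.0 against mm10. No source used here gives filters or the probe set version. Probes read only part of a transcript, and near-identical genes may share them. The members, gene lists, motifs and tests were chosen with earlier results of these data known.

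Members were found by the rule on UMIs, and their UMIs summed per library (1255128 in KO, 1098929 in labelled Het and 835047 in labelled WT members) and scaled to CPM. For ratios of UMI sums the interval is the exact binomial one, conditional on their total; 0.5 counts were added before taking log2. Shares carry Clopper-Pearson intervals. PCR copies are collapsed by UMI, and intervals cover counting error only. The 8 rule genes, Pex2, Xist and Y-linked genes were left out of the counts. Named are the 12 genes in each direction with the largest smaller log2 ratio among those at a mean of at least 50 CPM, and in each of 25 lists up to 3 genes past the rule and the 2 highest in mean CPM, with all tested Kupffer identity genes; other genes past the rule in a list are given by name. Fn1 was added after its values were seen. The 10 lists of other cell types came from markers. Monocytes were barcodes outside both macrophage rules with fewer than 2 of the 7 marker genes and 2 or more UMIs of at least 3 of Csf1r, Ccr2, Ms4a6c, Ms4a4c and Cx3cr1.

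Scrublet (scanpy 1.11.5) marked 6 KO, 2 labelled Het and 6 labelled WT members, which were kept in the main values. Alternatives were TMM factors (edgeR 4.0.16) and DESeq2 1.42.0 size factors in R 4.3.3, other filters, thinning, cell weights and other member sets. The alternatives without members under 2 Clec4f UMIs, without members rich in neutrophil transcripts, with no Gpnmb limit for genes, and with neutrophil genes left out of totals were chosen after seeing the data. On simulated counts with counting error only, for KO against both other libraries over 7305 genes, the rule recovered 47 of 50 genes doubled and 46 of 50 halved, and of 7105 left unchanged it called 8 higher and 11 lower. Scripts ran in Python 3.11.15 with scipy 1.17.1, numpy 2.4.6, matplotlib 3.10.9 and pandas 2.3.3. Values of some genes of the lists are not reported here.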

Additional observations from a re-analysis of the deposited data

Results flagged for a closer look

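Adam8, a membrane metalloprotease of myeloid cells, was higher in KO in Kupffer-like macrophages and lower in KO in monocytes. In members it stood at 326 CPM in KO, 106 CPM in labelled Het and 65.9 CPM in labelled WT cells, a log2 ratio of 1.61 for KO over labelled Het and 2.30 for KO over labelled WT. In monocytes it stood at 20.1 CPM in KO, 76.6 CPM in labelled Het and 36.2 CPM in labelled WT cells, a log2 ratio of -1.93 for KO over labelled Het and -0.85 for KO over labelled WT. With 1 library per genotype the difference between the cell types was not tested.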

How the results depend on the processing

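Under other settings the count of genes higher in KO was 125 with a mean of at least 100 CPM, 222 with members thinned to 3000 UMIs, 112 at 2-fold and 903 with each cell weighing the same, against 402. The count of genes lower in KO was 181, 199 and 219 under the first 3 of these, against 502. Thinning kept 127 of the 402 higher genes and 151 of the 502 lower ones, over 4767 genes tested. TMM factors, DESeq2 size factors, other marker or Gpnmb limits, and leaving out doublets, dividing cells or members without Clec4f left both counts within 1.5 times of these. Similar counts did not always mean the same genes. Of the 402 higher and 502 lower genes, TMM factors kept 400 and 491. Leaving out dividing cells kept 302 and 316 of them, and setting no Gpnmb limit kept 296 and 347. Leaving out members without Clec4f kept 301 and 395. The ratio of KO to labelled Het shares was 1.40 with barcodes thinned to 3000 UMIs and 1.48 with no Gpnmb limit, against 0.803, and that of KO to labelled WT shares 1.83 with no Gpnmb limit, against 0.964. Ccnb2 (-0.77) and Mki67 (-0.15) turned direction without members rich in neutrophil transcripts; the cause was not tested. Of named genes past the rule, 56 of 79 stayed so when thinned and 72 of 91 without members rich in neutrophil transcripts. No paired analysis was possible because each genotype has 1 library, which also leaves no library to leave out. Of 50 list medians, 21 moved when thinned and 17 without members rich in neutrophil transcripts. Genes with fewer than 30 UMIs were not compared at this depth.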
